A study of Mus musculus with 4 samples.

Results

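Fat depots of the trunk differ in the developmental transcription factors that their cells express, and 9 genes for such factors were followed here in visceral adipose tissue: Tbx15, Shox2, En1, Tcf21, Tbx5, Gata4, Gata6, Meis1 and Hand2. They were chosen by name, as known depot factors, and are 9 of the 21000 protein-coding genes with curated RefSeq transcripts on the mouse build mm10. Their loci, from 20 kb upstream of the first start site to the gene end, held 60 of the 147157 accessible regions formed by merging the peaks of all libraries. Of the 9 promoters, 7 carried a peak in all 4 libraries, as did 57.9% of all coding genes. The En1 promoter had one in 3 libraries and the Tbx5 promoter in none. The median rank of the open members lay behind that of other open coding promoters in every library. Of the 3 subcutaneous factors, Tbx15 and Shox2 were open in every library of this visceral tissue. Both have promoters rich in CpG (observed over expected ratio of at least 0.6), and 89.1% of such promoters were open in all 4 libraries. At a stricter q-value limit Tbx15 remained open in 2 libraries and Shox2 in 3.

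The data were ATAC-seq peak lists, in which a transposase marks accessible chromatin, from visceral fat of 8-week-old CD-1 mice, an outbred stock. The labels name no engineered allele in either group. Both control libraries came from descendants of dams given sesame oil. Both BPA libraries came from descendants of dams that received the plasticiser bisphenol A by injection, at 50 mg/kg, from embryonic day 7.5 to 13.5. By the study's methods the sampled mice were themselves untreated and were bred several generations after the injected dams. The labels and the study's methods name different generations for the BPA animals, and the list of BPA 2 carries another replicate number than its label. The labels give no sex, batch or dissected depot beyond visceral fat, and bulk nuclei of all cell types in the tissue were used, so fewer cells of a type and less open chromatin per cell cannot be told apart.

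The lists held between 72375 peaks (BPA 1) and 98060 peaks (BPA 2). Pile-up is the number of reads stacked at a peak's summit, not scaled to depth. Its median was between 19 and 38, lowest in BPA 1 and highest in BPA 2. The lists therefore differ in depth, and peaks were compared by their rank: a rank of 10% means that the peak's −log10 q-value lay in the best 10% of its own list. No test between groups was made, because with 2 libraries against 2 the smallest p of an exact two-sided permutation test is 2 of the 6 possible splits, above any usual threshold. Adipocyte markers fitted the label, with promoter peaks at 6 of 6 in every library, against 61.4% to 67.4% of all coding genes. Their ranks were uneven. In control 1, control 2, BPA 1 and BPA 2 Adipoq stood at 58.6%, 20.3%, 67.2% and 51.2%, and Plin1 at 74.8%, 23.1%, 68.9% and 89%. Cidec, Lep and Fabp4 also ranked best in control 2, whereas Pparg stood at 43.2%, 33.8%, 15.8% and 7.16%. The 5 heart muscle and 3 hepatocyte markers had no peak. The marker counts of most other cell types differed between libraries. Endothelial markers had peaks at 2, 2, 5 and 5 of 5 promoters in control 1, control 2, BPA 1 and BPA 2, and macrophage markers at 3, 2, 5 and 5 of 6. Mesothelial markers had 5, 2, 2 and 1 of 6, high in control 1 alone, where Lrrn4, Krt19 and Upk1b had their only peaks. Adipose progenitor markers had 3, 3, 4 and 4 of 6, epithelial markers 2, 0, 2 and 2 of 4, brown adipocyte markers 1, 2, 1 and 3 of 3, and skeletal muscle markers 1 of 4 in each library, which was Acta1.

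Depot factors are DNA-binding proteins that pattern the embryo and remain expressed in the adipose cells of the region where they acted. Tbx15 (a T-box factor), Shox2 (a short stature homeobox factor) and En1 (an engrailed homeobox factor of the dorsal body wall) are known as subcutaneous factors. Tcf21 (a basic helix-loop-helix factor), Tbx5 (a T-box factor of heart and forelimb) and the zinc finger factors Gata4 and Gata6 are known from visceral mesenchyme and mesothelium. Meis1 (a homeobox partner of Hox and Pbx proteins) and Hand2 (a basic helix-loop-helix factor of heart and limb) were not placed in either group and are given on their own.

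The 250 bases upstream of the first start site are shown for Tcf21, En1 and Hand2, whose promoters span the range of CpG content among the open members with a RefSeq promoter sequence (GRCm38.p6, 5 of 9 members matched). Each is written 5′ to 3′ on the gene's own strand, with every CG dinucleotide in capitals. Tcf21 lies at chr10:22820144-22820393 on the minus strand, En1 at chr1:120602237-120602486 on the plus strand and Hand2 at chr8:57320733-57320982 on the plus strand.
Tcf21: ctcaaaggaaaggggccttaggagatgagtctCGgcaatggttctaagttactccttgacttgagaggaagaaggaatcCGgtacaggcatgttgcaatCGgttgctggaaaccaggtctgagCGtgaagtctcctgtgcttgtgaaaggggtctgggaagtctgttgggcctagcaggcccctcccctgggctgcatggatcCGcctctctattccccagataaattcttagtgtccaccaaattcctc
En1: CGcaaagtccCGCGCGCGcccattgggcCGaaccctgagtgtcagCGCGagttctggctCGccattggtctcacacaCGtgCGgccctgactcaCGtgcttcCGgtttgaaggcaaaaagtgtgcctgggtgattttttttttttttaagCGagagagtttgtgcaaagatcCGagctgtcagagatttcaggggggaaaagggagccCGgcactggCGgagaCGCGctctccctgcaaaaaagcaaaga
Hand2: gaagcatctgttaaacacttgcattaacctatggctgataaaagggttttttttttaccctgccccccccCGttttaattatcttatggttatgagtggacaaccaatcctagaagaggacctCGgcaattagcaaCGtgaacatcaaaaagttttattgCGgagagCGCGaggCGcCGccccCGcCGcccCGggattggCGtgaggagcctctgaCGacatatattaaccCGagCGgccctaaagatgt
The Tcf21 stretch held 5 CG dinucleotides, more than 32.2% of the 20488 promoters in the table. En1 held 19, more than 73.1% of promoters, and Hand2 held 15, more than 62.3%. Short motifs, 7 in all, were searched on both strands: AGATAA for GATA factors, AGGTGTGA for T-box factors, CAGCTG for the E-box, TAATTA for homeobox factors, TGACAG for Meis factors, TTGCGCAA for C/EBP and TGANTCA for AP-1. Tcf21 held a GATA match, Hand2 a GATA and a homeobox match, and En1 a Meis and an AP-1 match, whereas the promoters of Shox2 and Meis1 held none of the 7. Among all promoters of this length 8.74% held the GATA letters, 4.24% the homeobox, 15% the Meis, 6.25% the AP-1, 12.3% the E-box, 0.991% the T-box and 0.205% the C/EBP letters. These matches describe the letters of the sequence and show no bound factor.

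A pair of regions that lie outside promoters and had a peak in all 4 libraries are shown by the bases around their summit, on the plus strand, because among the shared distal regions of their loci they had the best value for their worst rank over the 4 libraries. The Meis1 window lies at chr11:19007755-19007855 in intron 6, 11164 bp into the gene, and the Gata4 window at chr14:63255801-63255901, 10580 bp upstream of the start site. Capitals mark the match to the Meis letters, read on the minus strand.
Meis1 intron 6: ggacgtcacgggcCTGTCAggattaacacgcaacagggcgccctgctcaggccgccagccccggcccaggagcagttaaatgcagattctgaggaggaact
Gata4 upstream: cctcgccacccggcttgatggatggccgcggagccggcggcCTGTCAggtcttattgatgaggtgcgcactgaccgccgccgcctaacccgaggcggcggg
Of 3 windows chosen in this way, in Meis1, Gata4 and Shox2, 2 held the Meis letters and that of Shox2, not shown, held none of the 7 motifs. The match covered bases 14 to 19 of the Meis1 window and bases 42 to 47 of the Gata4 window. Of 26276 windows of the same length at shared distal regions across the series, 7.23% held these letters. Neither window held any of the other 6 motifs, which were present in 4.48% (GATA), 0.232% (T-box), 9.56% (E-box), 1.65% (homeobox), 0.137% (C/EBP) and 6.8% (AP-1) of windows.

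A promoter was counted as open when a peak touched the 500 bp either side of a curated start site. By this measure 8, 7, 8 and 8 of the 9 members were open in control 1, control 2, BPA 1 and BPA 2, against 62.6%, 61.4%, 64.1% and 67.4% of all coding genes. Open in all 4 libraries were 7 of 9 members, and 57.9% of coding genes. No member was open in both BPA libraries and closed in both control libraries, a pattern seen at 2.51% of coding genes. CpG-rich promoters were open more often than others in these libraries, and 7 of the 9 members have one; the part of CpG content in the members' share was not tested. The observed over expected CpG ratio within 500 bp of the start site was 0.759 at Tbx15, 0.671 at Shox2, 0.774 at En1, 0.661 at Gata4, 0.656 at Gata6, 0.651 at Meis1 and 0.743 at Hand2. Promoters with a ratio of at least 0.6 were open in all 4 libraries at 89.1% of genes, and those with a lower ratio at 27.6%. Tcf21 had a ratio of 0.498 and was open in all 4 libraries. Tbx5 had 0.121, lower than all but 9.31% of coding genes, and was open in none, as were 30.4% of coding genes.

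**Figure D1:**
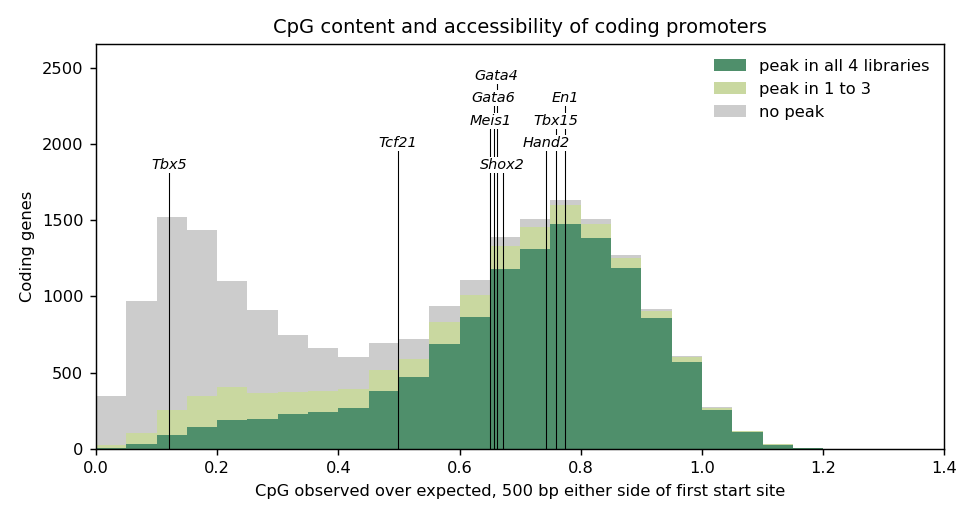
Number of coding genes (vertical axis) by the observed over expected CpG ratio of the promoter (horizontal axis), stacked by whether a promoter peak was found in all 4 libraries, in 1 to 3 or in none, with the 9 members marked by vertical lines. Tbx5 (0.121) stands among the promoters that mostly have no peak, and Tcf21 (0.498) lies between it and the 7 members above 0.6.

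The open promoters of the members ranked low. Their median rank was 50.8%, 64.7%, 55% and 31% in control 1, control 2, BPA 1 and BPA 2, whereas the median over open coding genes was 9.55%, 10.9%, 9.53% and 7.08%. Each open member was outranked by at least 36.6% of the open coding genes of its library, and Tbx15 in BPA 1 by 99.1%. Gata6 and Meis1 alone ranked at 20.8% or better in each list.

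Among the subcutaneous factors, the Tbx15 promoter had a single peak in each library, ranked at 35.9%, 64.7%, 93.7% and 36.7% in control 1, control 2, BPA 1 and BPA 2. The pile-ups were 28, 21, 10 and 44 reads, and the folds over local background 4.3, 3.43, 3.44 and 6.54. Control and BPA values overlapped in rank, pile-up and fold, and the 2 libraries of each group lay far apart. The peak was 1386, 549, 246 and 1275 bp wide, and in BPA 1 it began 138 bp downstream of the start site.

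Shox2, which has 3 curated start sites, ranked at 49.2% and 78% in the control libraries and at 40.4% and 25.3% in the BPA libraries. Pile-ups were 33, 25, 27 and 86, and folds 3.1, 2.59, 5.43 and 5.28. Both BPA libraries were ahead of both control libraries in rank and fold, while the pile-up of BPA 1 lay between those of the control libraries. Divided by the lowest local background of its list, the pile-up was 11.6 and 9.26 in the control libraries. In the BPA libraries this ratio was 23.4 and 22.6. No share over coding promoters was computed for it. The shares of coding promoters with such orders in rank and fold are given below for all members together. In control 1 the best peak was a separate one with its summit 746 bp upstream of the first start site, and the peak on the shared promoter region ranked at 55.3%.

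En1, the only member of this group without a promoter peak in one library, ranked at 75.1% in control 1, 69.7% in BPA 1 and 37.9% in BPA 2, with pile-ups of 17, 15 and 54 and folds of 3.1, 4.49 and 5.2. In control 2 the nearest peak began 588 bp downstream of the start site, just beyond the promoter limit, and ranked at 78.9%. With a promoter of 1000 bp either side En1 was open in all 4 libraries. With the summit required inside the promoter it was open in 2, control 1 and BPA 2. The summit in BPA 1 lay 798 bp downstream of the start site.

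Among the visceral factors, Tcf21 ranked at 66.6% and 76.6% in the control libraries and at 27.8% and 23% in the BPA libraries. Pile-ups were 16 and 16 reads against 37 and 90, folds 3.61 and 3.27 against 6.04 and 5.61, and peak widths 649 and 417 bp against 1235 and 1381 bp. The groups did not overlap in any of these measures. Of the 12166 coding promoters open in all libraries, 40.7% ranked better and 86.4% had a higher fold in both BPA libraries. No such share was computed for pile-up or width. In control 2 the Tcf21 promoter carried 2 peaks, and the values are those of the better-ranked one. Among peaks whose −log10 q-value reached 5, the Tcf21 promoter remained in both BPA lists and in neither control list. So did that of En1, which had no promoter peak in control 2 at any q-value. In BPA 1 the En1 peak passed narrowly, at 5.69, and its summit lay 798 bp downstream of the start site, outside the promoter limit. Tcf21 and En1 are 2 of 9 members, against 3.57% of coding genes at this threshold. That share is over all coding genes, whose open promoters had a better median rank than the members in each library. None was computed for genes of like rank. A fixed limit also cuts the lists at different ranks. The Gata4 promoter peak had 5.11 at a rank of 63.6% in control 2, and 7.67 at 72.5% in BPA 2. The lists differ in depth, with the highest median pile-up in BPA 2 (38) and the lowest in BPA 1 (19). The part of depth in this pattern was not tested.

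Gata4 showed the opposite order. Its promoter ranked at 52.4% and 63.6% in the control libraries and at 85% and 72.5% in the BPA libraries, with pile-ups of 22, 19, 11 and 29 and folds of 3.73, 3.7, 4 and 3.6. The ranks of the groups did not overlap, but the pile-ups and folds did. Of the 12166 coding promoters open in all libraries, 18.7% ranked better in both control libraries. A start site known only from predicted transcripts lies about 26 kb further upstream, at chr14:63271712. It carried a peak in control 1, control 2 and BPA 1, at ranks of 29.9%, 43.4% and 71.5%, which were better than those of the curated promoter, and had none in BPA 2.

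The Gata6 promoter differed little in rank between libraries, and ranked at 16.7%, 20.8%, 17.1% and 10.5%, with pile-ups of 59, 61, 74 and 241 reads and folds of 4.02, 4.05, 5.22 and 5.46. The control and BPA ranks overlapped, while both BPA libraries were higher in pile-up and fold. A higher fold in both BPA libraries was found at 86.4% of coding promoters open in all libraries. No such share was computed for pile-up. The antisense gene Gata6os starts in the same region, so the peak cannot be assigned to one of them.

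Tbx5 had no peak within 500 bp or within 1000 bp of its curated start site in any library. The nearest peak lay 2928, 3057, 2905 and 2576 bp upstream in control 1, control 2, BPA 1 and BPA 2, at the promoter of the neighbouring gene Gm5563. It ranked at 71.9%, 77%, 89.6% and 43.5%, with pile-ups of 13, 14, 8 and 39. Where a list has no peak, accessibility was not detectable at that depth and need not be absent. Predicted RefSeq transcripts place a further Tbx5 start site 441, 570, 418 and 89 bp from that peak, so with predicted transcripts Tbx5 counted as open in control 1, BPA 1 and BPA 2.

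Meis1 had the best-ranked promoter in all libraries but control 1, where Gata6 was ahead, at 17.1%, 6.5%, 11.7% and 10.4%, and pile-ups of 76, 103, 96 and 268. Its folds were 3.31, 4.87, 6.13 and 5.02, which placed it at 70.7%, 38.5%, 43.3% and 49.9% when the lists were ordered by fold instead. Gata6 moved likewise, to 47.4%, 55.7%, 57.9% and 43.4%. The high places of these genes by q-value thus went with many reads over a high local background, which was 22.3, 20.4, 14.8 and 52.6 reads at Meis1. The Meis1 peak was wide, at 2548, 1100, 2476 and 2652 bp. In control 1 its summit lay 1568 bp upstream of the start site, so the pile-up and fold there belong to a point outside the promoter limit. With summits required inside the promoter, Meis1 was open in 3 libraries, all but control 1.

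Hand2 ranked at 64.3% and 82.8% in the control libraries and at 86.6% and 68.5% in the BPA libraries, with pile-ups of 30, 20, 10 and 25. These values overlapped between groups, whereas the folds of 2.68 and 2.7 in the control libraries were lower than those of 3.99 and 4.37 in the BPA libraries. That order of folds was found at 86.4% of coding promoters open in all libraries. The antisense gene Hand2os1 starts in the same region.

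**Figure D2:**
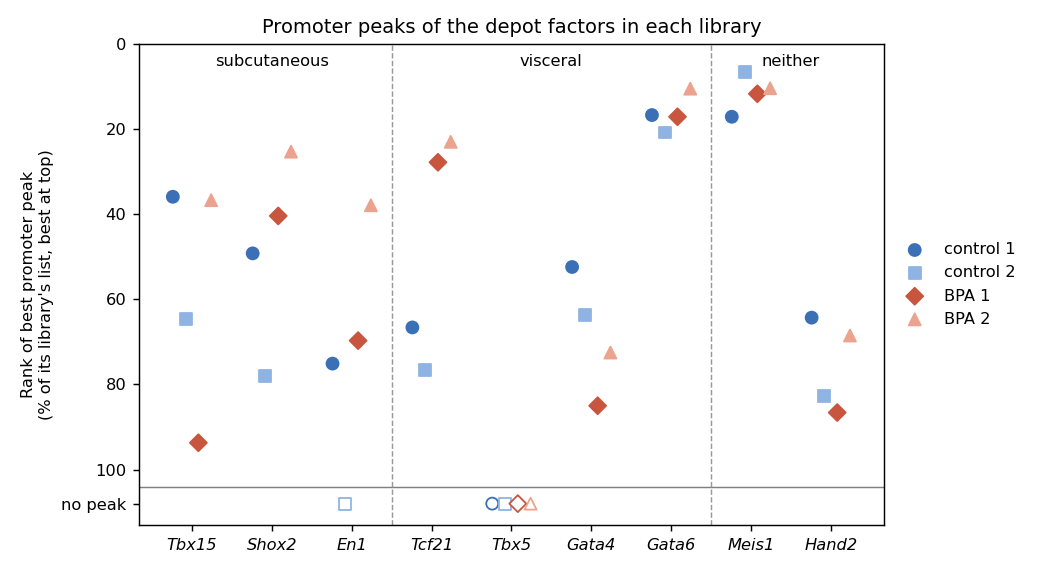
Rank of the best promoter peak (vertical axis, percent of the library's own list with the best at the top) for each member (horizontal axis) in the 2 control libraries (blue) and 2 BPA libraries (red), with open symbols below the line for no peak. Gata6 and Meis1 stay near the top in all 4 libraries, both BPA libraries are above both control libraries at Shox2 and Tcf21, and the order is turned at Gata4.

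Of the 7 members open in all libraries, 2 ranked better in both BPA than in either control library (Shox2 and Tcf21), 1 ranked better in both control libraries (Gata4) and 4 overlapped. Across the 12166 coding genes open in all libraries the same patterns were found at 40.7% and 18.7%, so the members' counts lay near or below the background. Fold separated the libraries more widely: 5 of 7 members (Shox2, Tcf21, Gata6, Meis1 and Hand2) had a higher fold in both BPA libraries and none in both control libraries. Over all such promoters 86.4% were higher in both BPA libraries and 0.518% in both control libraries, and the median fold was 6.24, 7.02, 10.9 and 9.99. Higher folds in BPA libraries were thus general. The endothelial and macrophage marker counts given above moved with the same split of the libraries. The adipose progenitor count did so through Pi16 alone. The part of these cell types in the ranks of Shox2, Tcf21 and Gata4 was not tested.

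Set side by side, visceral and subcutaneous factors did not separate in this visceral tissue. Of the 4 visceral factors 3 were open in every library, all but Tbx5. Of the 3 subcutaneous factors 3, 2, 3 and 3 were open in control 1, control 2, BPA 1 and BPA 2, and 2 in all of them. Median ranks of the open visceral factors were 52.4%, 63.6%, 27.8% and 23%, and those of the open subcutaneous factors 49.2%, 71.3%, 69.7% and 36.7%. The visceral median was the better one in 3 libraries and the worse one in control 1. With 3 or fewer genes behind each median, and with single genes of one group spread as widely as Tbx15 was across libraries, no order between the groups can be read from these values.

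By presence of a peak alone, other genes known to differ between depots gave a clearer division. All 6 visceral genes had a promoter peak in all 4 libraries: Wt1 (a mesothelial zinc finger factor), Nr2f1 (a nuclear receptor), the homeobox genes Hoxa5 and Hoxc8, Thbd (thrombomodulin) and Bnc1 (basonuclin). None of the 3 subcutaneous genes did. Hoxc10 had a peak in both BPA libraries, at ranks of 34.4% and 36.6%, and in neither control library. Hoxc9 had one in control 1 and BPA 2, and Sfrp2, a secreted Wnt antagonist, in all but control 2. By rank the visceral genes were spread. Thbd stood at 6.29%, 4.79%, 5.58% and 6.06% and Bnc1 at 78%, 91.6%, 57.8% and 52.7% in control 1, control 2, BPA 1 and BPA 2. Nr2f1 stood at 86.6% in control 1. The Hoxc10 peaks of both BPA libraries ranked better than those of Bnc1. Since 57.9% of coding genes were open in all libraries, and these lists hold 6 and 3 genes, the division describes these genes alone. The lists were also chosen with earlier results of these data known.

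The families of the members were mixed. Of 14 other T-box genes, 4 were open in all libraries (Tbx3, Tbx18, Eomes and Mga) and 3 in none (Tbx19, Tbx22 and T). Tbx3 ranked at 6.76%, 5.5%, 3.53% and 4.92%, far above Tbx15 in each library. Gata2, Gata3 and Gata5 were open in all libraries and Gata1, the erythroid factor, in none. Gata3 ranked at 8.52%, 3.53%, 6.45% and 8.66%, better than Gata4 and Gata6 in each library. All 8 Meis and Pbx relatives of Meis1 were open in all libraries, as was En2, while Hand1 was open in none. Of 5 basic helix-loop-helix relatives of Tcf21, Tcf23 and Tcf24 were open in all libraries, and Tcf15 in both BPA libraries only, at 25.6% and 11.6%. Of 8 heart genes set beside Gata4, Gata6, Tbx5 and Hand2, which also act in the heart, 6 were open in none, Tbx20 in BPA 2 and Isl1 in all.

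**Figure D3:**
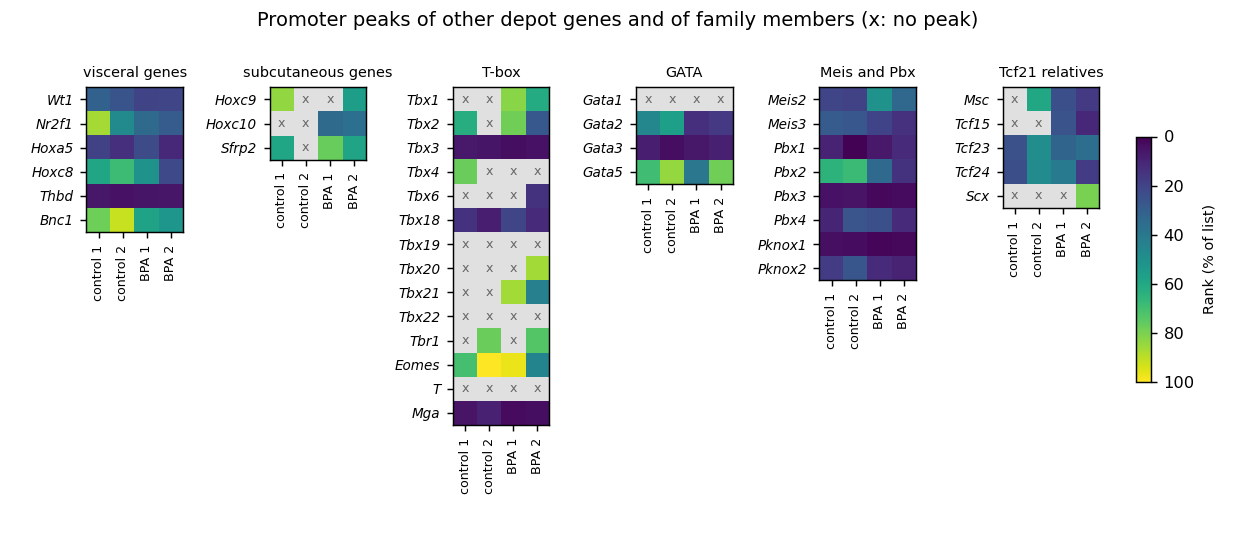
Promoter peaks of other depot genes and of relatives of the members (rows) in the 4 libraries (columns), coloured by rank in percent of the list from best (dark) to last (yellow), with a cross for no peak. The 6 visceral genes and the 8 Meis and Pbx genes are coloured throughout, while the 3 subcutaneous genes and most T-box genes have crosses.

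For each member open in all libraries, the coding gene with the closest set of 4 ranks was found among 12165 others by the root mean square difference of log10 rank. Tcf21 lay closest to Uchl1, at 0.0212, with ranks of 64%, 71.7%, 28.9% and 21.9%. Shox2 lay closest to Prelid3a (0.0244), Gata4 to Eps8l2 (0.0444), Tbx15 to Wdr83 (0.0602), Hand2 to Fry (0.0291), Gata6 to Trmt9b (0.0106) and Meis1 to Ebp (0.00967). With 4 libraries such likeness is a description only.

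Beyond the promoters, the loci ranged from 22.9 kb (Tcf21) to 158.5 kb (Meis1). Peaks in the locus numbered 5, 6, 2 and 3 at Tbx15, 5, 4, 3 and 3 at Shox2, and 1, 3, 2 and 3 at En1 in control 1, control 2, BPA 1 and BPA 2. Visceral loci held 2, 2, 1 and 1 at Tcf21, 1, 1, 4 and 4 at Tbx5, 4, 3, 3 and 5 at Gata4, and 3, 4, 1 and 3 at Gata6. Meis1 held 15, 16, 9 and 16, and Hand2 held 4, 3, 1 and 1. The loci of Tbx15, Shox2, Tcf21 and Hand2 had more peaks in both control libraries than in either BPA library (4 of 9, against 10.4% of the 17923 coding loci compared). Tbx5 alone had more in both BPA libraries (1 of 9, against 16.7%). A count of peaks also depends on how the caller splits a wide stretch, and the bases covered gave another order. Only Hand2 was covered further in both control libraries, with 3434 and 1456 bp against 534 and 1124 bp (1 of 9, against 10.7%). En1, Tcf21 and Tbx5 were covered further in both BPA libraries (3 of 9, against 30.6%). Tcf21 thus had fewer peaks but more covered bases in the BPA libraries, with 960 and 664 bp against 1235 and 1381 bp.

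Peak density, in peaks per 10 kb of locus, had medians over the visceral factors of 0.584, 0.603, 0.445 and 0.566. Over the subcutaneous factors the medians were 0.415, 1.18, 0.784 and 0.998, and over all coding genes 0.47, 0.49, 0.449 and 0.625. The ranges of the visceral and subcutaneous factors overlapped in every library, for example 0.142 to 0.874 against 0.392 to 1.66 in control 1.

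Of the 60 regions in the loci, 19 had a peak in all 4 libraries, which is 31.7% against 30.1% of regions in all coding loci. A peak in 1 library was found at 24 regions, or 40% against 35.6%. Another 6 regions had peaks in 3 libraries and 4 in 1 library of each group. These shares were close to the background. Meis1 alone held 21 regions, 8 of them in all 4 libraries. By its worst rank over the 4 libraries, the best distal region was the one in Meis1 intron 6 shown above, at ranks of 27%, 23.6%, 20.6% and 16.7% and pile-ups of 48, 51, 43 and 110. A region 8272 bp upstream of Meis1 ranked at 30.4%, 33.9%, 27.9% and 14.6%. The upstream region of Gata4 shown above ranked at 64.4%, 32.5%, 66.7% and 36.4%, better than the Gata4 promoter in all libraries but control 1.

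Regions with peaks in both BPA and neither control library numbered 5, or 8.33% against 9.72% of regions in coding loci. They lay 5619 bp upstream of En1, in Tbx5 introns 7 and 8, in Gata4 intron 2 and in Meis1 intron 8. The Tbx5 regions, 33576 and 42640 bp into the gene, ranked at 83.3% and 70.4%, and at 56.1% and 84%, in BPA 1 and BPA 2. The Gata4 region, 30049 bp into the gene, ranked at 72.3% and 70.4%, and the En1 region at 76.3% and 82.3%. The Meis1 region, 93853 bp into the gene, ranked at 56.5% and 43.8%. Apart from this Meis1 region in BPA 2, none of the 5 ranked better than 56.1% in either library.

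Regions with peaks in both control and neither BPA library numbered 2, or 3.33% against 4.64%. One lay in Tbx15 intron 6, at chr3:99338853-99339718, 85549 bp into the gene, and ranked at 17.6% in control 1 and 62.9% in control 2. In both control libraries this region ranked better than the Tbx15 promoter, narrowly so in control 2. The other lay in Hand2 intron 1, 2014 bp into the gene, at 63.7% and 86%. Neither group pattern was more frequent in the members' loci than over all coding loci.

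**Figure D4:**
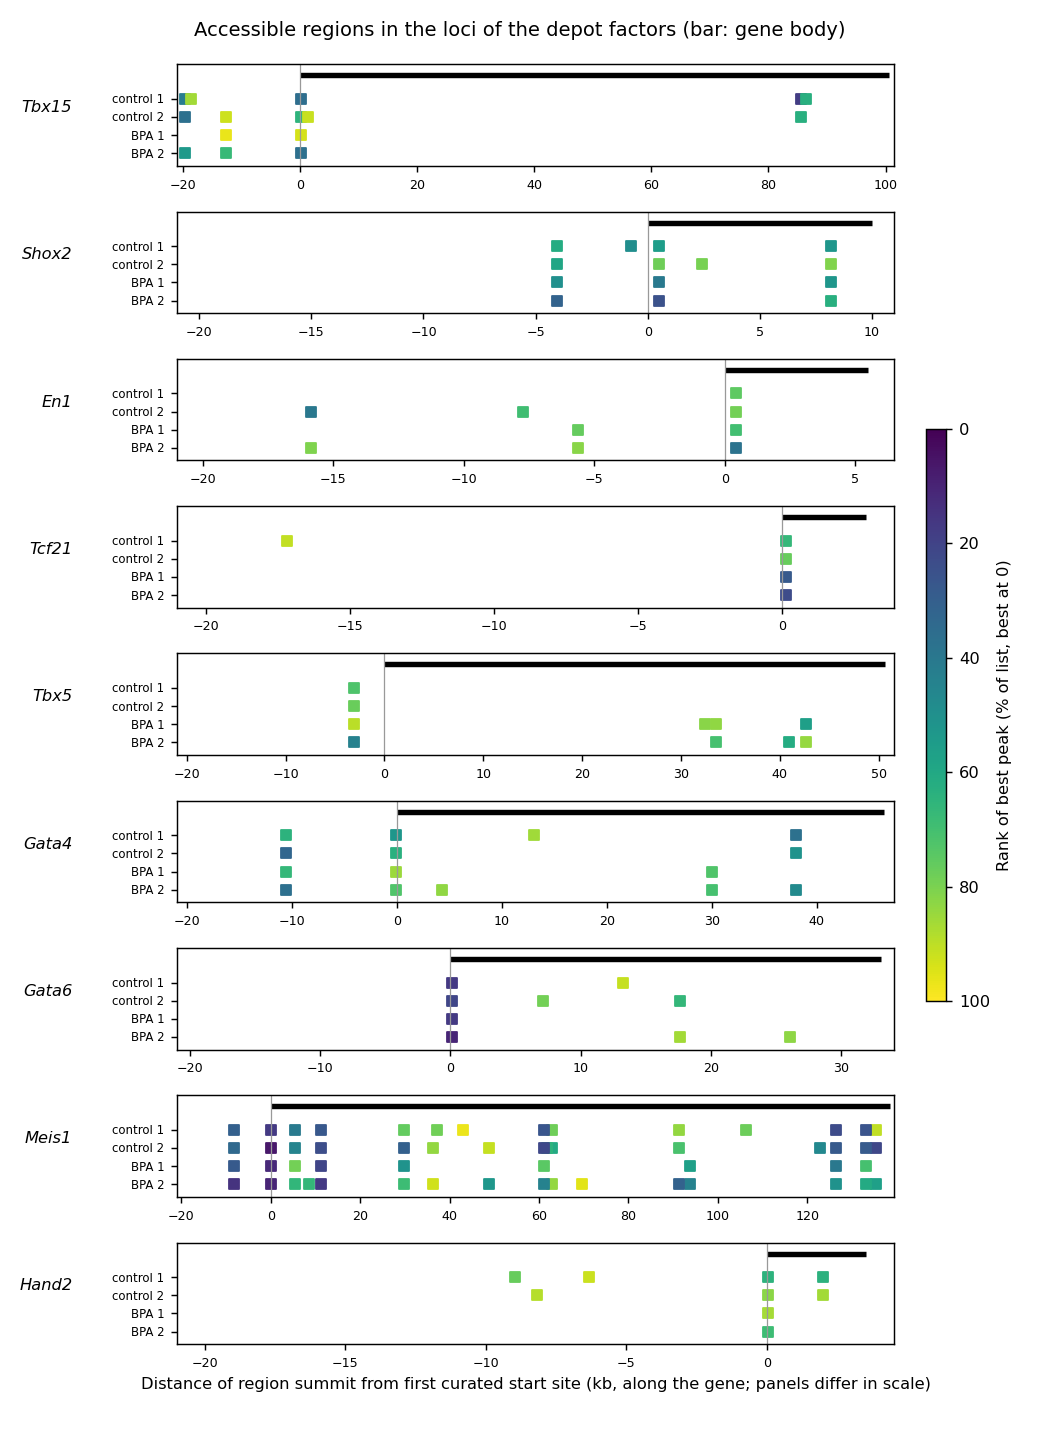
Accessible regions in the 9 loci by distance of the summit from the first curated start site in kb along the gene (horizontal axis, different scale in each panel), with 1 row for each library, colour for rank in percent of the list, and a black bar for the gene body. Meis1 carries 8 regions shared by all 4 libraries, Tbx5 has intronic regions in the BPA rows only, and the Tbx15 region near 85 kb appears in the control rows only.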

How the data were processed

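ATAC-seq peak lists of 4 visceral adipose libraries were analysed, 2 control and 2 BPA, grouped by the treatment label. The labels do not state whether the samples of a group came from separate litters. The authors trimmed reads with Trim Galore, mapped them to mm10 with Bowtie2 2.3.5.1 with the limit on fragment length raised, kept uniquely mapped reads, removed duplicates with SAMtools and ran MACS2 2.2.7.1 on single libraries, without pooling; other options of the peak caller were not stated. The CD-1 stock differs from mm10, and reads in repeats or near-identical copies were lost in mapping. The deposited score is 10 times the −log10 q-value, the deposited fold is the ratio of the summit pile-up to the local background, each with a pseudocount of 1 added, and the deposited −log10 p-value and q-value are those of the peak caller.

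Pile-up and local background, which the lists do not give, were solved from the fold and p-value and matched for 100% of peaks, and the scripts were tested on simulated lists. Peaks with a −log10 q-value down to 1.30 were used. Ranks are by q-value within a list. Promoters were 500 bp either side of 31601 start sites of 45756 curated RefSeq transcripts (GRCm38.p6). Peaks of all libraries were merged into regions, and a region belonged to a locus that it overlapped. Python 3.11.15, numpy 2.4.6, pandas 2.3.3 and scipy 1.17.1 were used. Read totals are not in the lists, so no interval was computed. The members, depot groups, marker, family and heart lists were chosen with earlier results of these data known. Named genes were the members, other genes starting in their loci (Rsrc1, Gm5563, Gata6os and Hand2os1), the listed genes and the gene closest in ranks to each member. The windows were those of the best shared distal region of each locus, except on chromosome 18 and in a 3′ untranslated region, where none is shown. Alternatives were a stricter q-value, equal list lengths, other promoter and locus limits, summits in place of peaks, predicted transcripts, a reciprocal overlap, ranks by fold and leaving out each library.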

Additional observations from a re-analysis of the deposited data

How the results depend on the processing

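Of 222 values recomputed under alternatives, 29 moved beyond the spread between libraries or, for counts of regions, beyond 1.5 times, and 1 changed sign. The other 192 stayed within these limits, but part of them could not move. A member's rank is that in the full list, whatever the q-value limit. A group's mean number of open members is fixed when a library of the other group is left out. The 192 are thus no measure of robustness. Among the 29 is the percent of the locus covered, set against peaks per 10 kb, so this label compares unlike units. Members with a promoter peak (mean 7.5 per control and 8 per BPA library) numbered 4 and 6.5 where the −log10 q-value had to reach 5, where weak peaks are left out by construction. The BPA mean was 7.5 with summits in place of peaks and 9 with predicted transcripts. The visceral share open minus the subcutaneous share was −16.7 percentage points, turned to 2.08 with predicted transcripts, which add start sites to Tbx5, and shrank to −2.08 at the stricter q-value and −8.33 with summits in place of peaks; it ran from −25 to −13.9 when single libraries were left out. The difference of median peak densities was −0.294 peaks per 10 kb, and from −0.449 (without control 1) to −0.201 without single libraries. It shrank to −0.0476 with loci from 50 kb upstream and to −0.157 without peaks at promoters of other genes; as percent of the locus covered, chosen after seeing the data, it was −2.09. Regions in all libraries numbered 19, against 7 at the stricter q-value, 8 when the peak and the region had to share at least 50% of their length and 19 to 24 without single libraries. BPA-only regions numbered 5, against 9 with that overlap and 5 to 10 without single libraries, the 10 being without BPA 1. Control-only regions numbered 2, against 1 at the stricter q-value, 0 with the overlap and 2 to 13 without single libraries: 9 without control 1, 13 without control 2 and 7 without BPA 2. A group of 1 library makes such patterns more frequent by construction. The control median rank was 57.7%, against 28.3% at the stricter q-value and 69% by fold, and the BPA median was 43%. No paired analysis was possible because no result comes from a test, and nothing in the labels ties a control library to a BPA library. Depth, which differed between lists, limits every statement on a missing peak.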
